A study of Mus musculus with 4 samples.

Results

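The alarmins and type 2 cytokines are 10 genes, chosen by symbol from the 23284 genes that both deposited tables list: the alarmins Il33, Tslp and Il25, the receptor chains Il1rl1 and Il17rb, the growth factor gene Csf2, the cytokine genes Il4, Il5 and Il13, and Areg. All 10 are protein-coding and were found, each in a single row of each table. The 4 libraries, 1 per group, were made from lung tissue of C57BL/6 mice. In the house dust mite (HDM) table, IL22-/- mice and wild-type mice had both been sensitized and challenged with HDM, an airborne allergen used to model asthma, and were sampled 48 h after the last dose. In the other table, wild-type mice had received recombinant IL-22 or phosphate-buffered saline (PBS) through the trachea and were sampled 24 h later, with no allergen. The labels do not give the design of the knockout allele, the sex or age of the mice, the HDM and IL-22 doses, or whether a library came from 1 animal or a pool. There is therefore no replicate for any value, and no p-value was computed.

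Alarmins are signals that the barrier epithelium and stroma release on damage or allergen contact. IL-33 binds a receptor made of ST2, the product of Il1rl1, and the accessory chain Il1rap. TSLP binds Crlf2 paired with Il7r, and IL-25 binds Il17rb paired with Il17ra. These receptors sit on group 2 innate lymphoid cells (ILC2), T helper 2 cells, dendritic cells and mast cells, and the lymphoid cells among them answer with IL-5 and IL-13, which bring eosinophils to the lung and turn airway epithelium towards mucus. IL-4 comes mainly from T helper 2 cells and basophils. GM-CSF, the product of Csf2, is made by alveolar type II cells among others and keeps alveolar macrophages mature, and amphiregulin, the product of Areg, is a ligand of the EGF receptor linked to tissue repair.

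Upstream sequences are shown for Il33, Il1rl1, Il13 and Areg, whose reads differed beyond counting error between the HDM libraries, and for Il5, whose reads did not, to set the letters before their start sites beside each other. RefSeq windows on GRCm38.p6 (the mm10 assembly) were present for 8 of the 10 genes, and the 250 bases before the start site were searched. Il33 has a pair of annotated starts, and each of the 2 accessions behind its FPKM begins at one of them. In these windows the capitals mark TATAAA, read on the gene's strand only.
Il33 first start (chr19:29924863-29925112, plus strand): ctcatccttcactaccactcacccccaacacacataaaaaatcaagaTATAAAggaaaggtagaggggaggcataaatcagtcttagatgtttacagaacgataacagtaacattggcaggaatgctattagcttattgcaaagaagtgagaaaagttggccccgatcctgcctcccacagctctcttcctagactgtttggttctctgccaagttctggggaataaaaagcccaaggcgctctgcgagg
Il33 second start (chr19:29945540-29945789, plus strand): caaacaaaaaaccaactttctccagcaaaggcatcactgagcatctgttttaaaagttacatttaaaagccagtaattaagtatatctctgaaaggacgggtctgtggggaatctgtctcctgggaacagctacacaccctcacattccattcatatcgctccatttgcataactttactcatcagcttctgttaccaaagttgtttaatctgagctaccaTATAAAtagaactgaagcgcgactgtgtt
TATAAA began 203 bases before the first start and 29 bases before the second. It was present in 7.59% of all 32851 such windows.

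GATA words were taken as the letters GATA with A or T before and A or G after them, on either strand, overlaps counted separately. They are the kind bound by GATA3, the factor of T helper 2 cells and ILC2. They are in capitals in the windows of Il1rl1, Il13 and Il5.
Il1rl1 upstream start (chr1:40429320-40429569, plus strand): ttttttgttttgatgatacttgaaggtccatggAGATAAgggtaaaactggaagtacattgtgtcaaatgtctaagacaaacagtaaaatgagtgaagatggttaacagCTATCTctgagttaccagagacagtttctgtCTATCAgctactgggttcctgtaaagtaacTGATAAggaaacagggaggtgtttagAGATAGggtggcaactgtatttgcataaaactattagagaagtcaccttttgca
Il1rl1 downstream start (chr1:40439379-40439628, plus strand): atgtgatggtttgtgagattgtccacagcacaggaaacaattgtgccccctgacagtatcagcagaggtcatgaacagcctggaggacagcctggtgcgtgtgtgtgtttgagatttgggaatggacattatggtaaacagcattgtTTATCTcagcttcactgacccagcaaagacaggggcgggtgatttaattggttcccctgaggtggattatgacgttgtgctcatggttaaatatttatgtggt
Il13 (chr11:53634703-53634952, minus strand): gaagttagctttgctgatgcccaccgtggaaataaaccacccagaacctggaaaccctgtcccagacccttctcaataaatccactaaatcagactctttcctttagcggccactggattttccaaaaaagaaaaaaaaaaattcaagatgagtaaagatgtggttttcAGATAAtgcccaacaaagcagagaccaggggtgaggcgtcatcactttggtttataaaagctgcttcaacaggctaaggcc
Il5 (chr11:53720544-53720793, plus strand): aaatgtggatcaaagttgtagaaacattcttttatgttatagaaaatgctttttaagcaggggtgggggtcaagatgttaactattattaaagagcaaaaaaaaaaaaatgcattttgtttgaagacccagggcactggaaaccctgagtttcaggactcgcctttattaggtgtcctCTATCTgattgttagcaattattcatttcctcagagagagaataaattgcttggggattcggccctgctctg
At least 1 such word was present in 26.5% of all windows, so a single match, as in Il13, Il5 and the downstream start of Il1rl1, is common. The upstream start of Il1rl1 held 5 words, a number reached by 14 of the 32851 windows (0.0426%). The accessions that the tables list for Il1rl1 begin near the downstream start, at 40439627 and 40439776, so its FPKM cannot be divided between the starts. Neither Il33 window, nor those of Areg and Il17rb, held a GATA word. Il4 had 1 in the window of its downstream start and none at its upstream start. The window of Csf2 is not shown, because its RefSeq start lay 232 bases from the nearest GENCODE start.

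Areg is shown with TGACGTCA, the cyclic AMP response element, in capitals; this word reads the same on both strands.
Areg (chr5:91139349-91139598, plus strand): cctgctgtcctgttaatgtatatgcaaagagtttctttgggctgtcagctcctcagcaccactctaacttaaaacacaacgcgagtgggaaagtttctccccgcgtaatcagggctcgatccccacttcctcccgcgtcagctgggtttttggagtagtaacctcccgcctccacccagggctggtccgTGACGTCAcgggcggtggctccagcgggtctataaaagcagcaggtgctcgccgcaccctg
It began 61 bases before the start, with TATAAA at 31 bases, and was found in 1.55% of all windows. No window of these 8 genes held TTCNNNGAA, a spacing bound by STAT factors, on either strand, against 7.02% of all windows. These matches describe letters, not bound sites.

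The libraries held an estimated 27.3 M (knockout HDM), 24.96 M (wild-type HDM), 28.9 M (IL-22) and 19.99 M (PBS) reads (M for 1000000), from the step that 1 read makes in the FPKM of low genes. FPKM scale reads by transcript length and depth, so levels of different genes can be set side by side. The lung origin was plain in every library: the 9 alveolar type II markers summed to 36823 to 43236 FPKM, and the 5 club cell markers to 123928 to 154386 FPKM. Il22, the deleted gene, was listed at 0 in the knockout HDM library and had 8 reads in wild-type HDM lung. It was at 0 in the IL-22 and PBS libraries too, so a value of 0 does not by itself mark the knockout.

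Il33 was the most abundant of the 10 genes in all 4 libraries and took 75.1% of their summed FPKM in the knockout HDM library, 84.3% in wild-type HDM lung, 65.9% after IL-22 and 63.9% after PBS. In the wild-type HDM library Areg followed at 11.6 FPKM and Csf2 at 11.0, whose counting intervals (10.3 to 13.0 and 9.34 to 12.8) overlapped. Il1rl1 at 3.30 and Tslp at 3.26 could not be put in order either, with intervals of 2.87 to 3.79 and 2.55 to 4.07. In the knockout HDM library Tslp (4.63 FPKM, 3.83 to 5.55) stood above Il1rl1 (1.54, 1.25 to 1.86), and Csf2 at 5.20 (4.14 to 6.42) overlapped with Tslp. The other 5 genes, Il25, Il17rb, Il4, Il5 and Il13, stayed under 1 FPKM in every library. The 4 low ones that were detected in wild-type HDM lung, Il13, Il17rb, Il5 and Il4, followed each other with overlapping intervals.

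**Figure D1:**
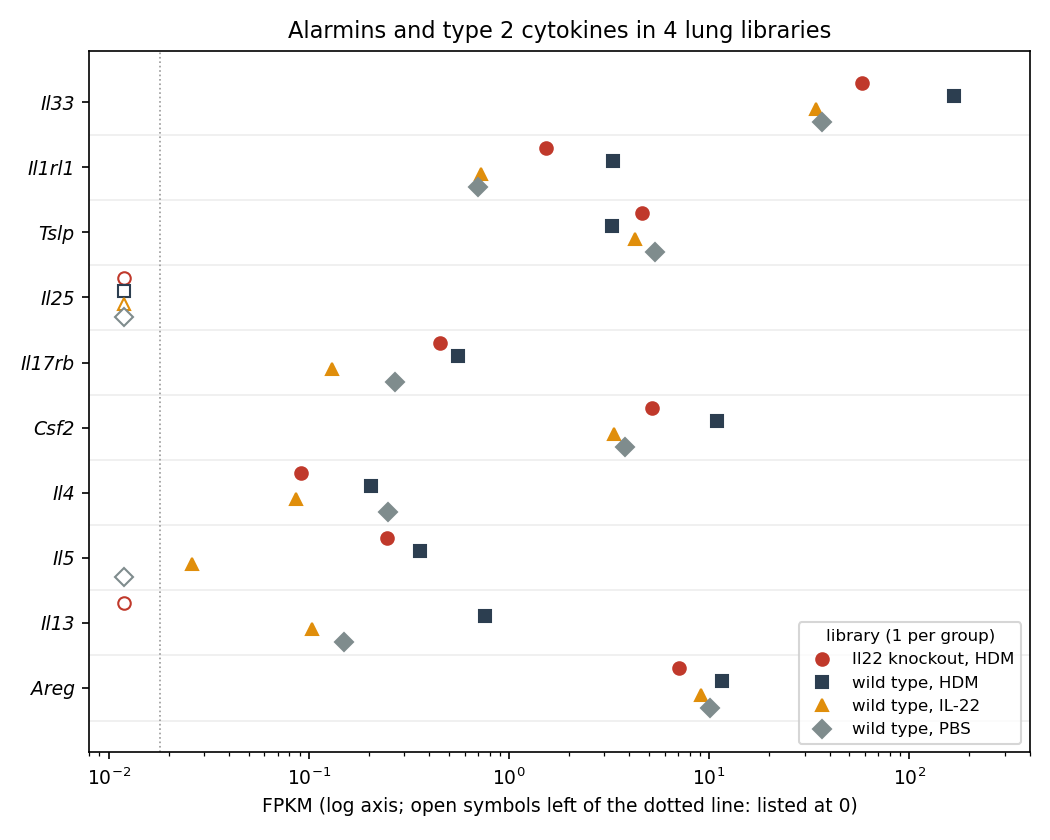
FPKM of the 10 genes (rows) in the 4 libraries, 1 per group, on a log axis, with open symbols at the left for values listed at 0. Il33 lies apart at 34.4 to 167 FPKM, and the wild-type HDM library has the highest listed value of the 4 for Il33, Il1rl1, Il17rb, Csf2, Il5, Il13 and Areg. Between the HDM libraries no difference was detectable for Il17rb and Il5. For Areg the counting intervals of the wild-type HDM library (10.3 to 13.0) and the PBS library (8.72 to 11.5) overlap.

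The knockout and wild-type HDM libraries were compared to ask what loss of IL-22 does to the allergic lung. Il33 and its receptor gene Il1rl1 were both less abundant in the knockout library, as were Csf2, Areg and Il13, while Tslp was more abundant. A gene counted as measured when the pair averaged 1 FPKM or more, and was called at a difference of log2(FPKM + 1) of at least 1 in size, a scale that understates differences of low genes. Of the 10 genes 5 were measured (Il33, Il1rl1, Tslp, Csf2 and Areg), and 1, Il33, was lower and none higher. Among all 13285 measured genes 2.42% were lower and 0.549% higher. The median difference of the 5 was -0.76, against 0.03 over all measured genes.

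Counting error was judged from the recovered reads, by the ratio of the libraries after depth with an exact binomial 95% interval. This covers counting error only, not the spread between mice. The interval could be computed for 8 genes and lay below 1 for 5 (Il33, Il1rl1, Csf2, Il13 and Areg), above 1 for Tslp, and on both sides for Il17rb and Il5. Over all 16083 genes with more than 3 reads in either library, intervals lay below 1 in 25.0% and above 1 in 27.0%. A ratio beyond counting error was thus common between these libraries.

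**Figure D2:**
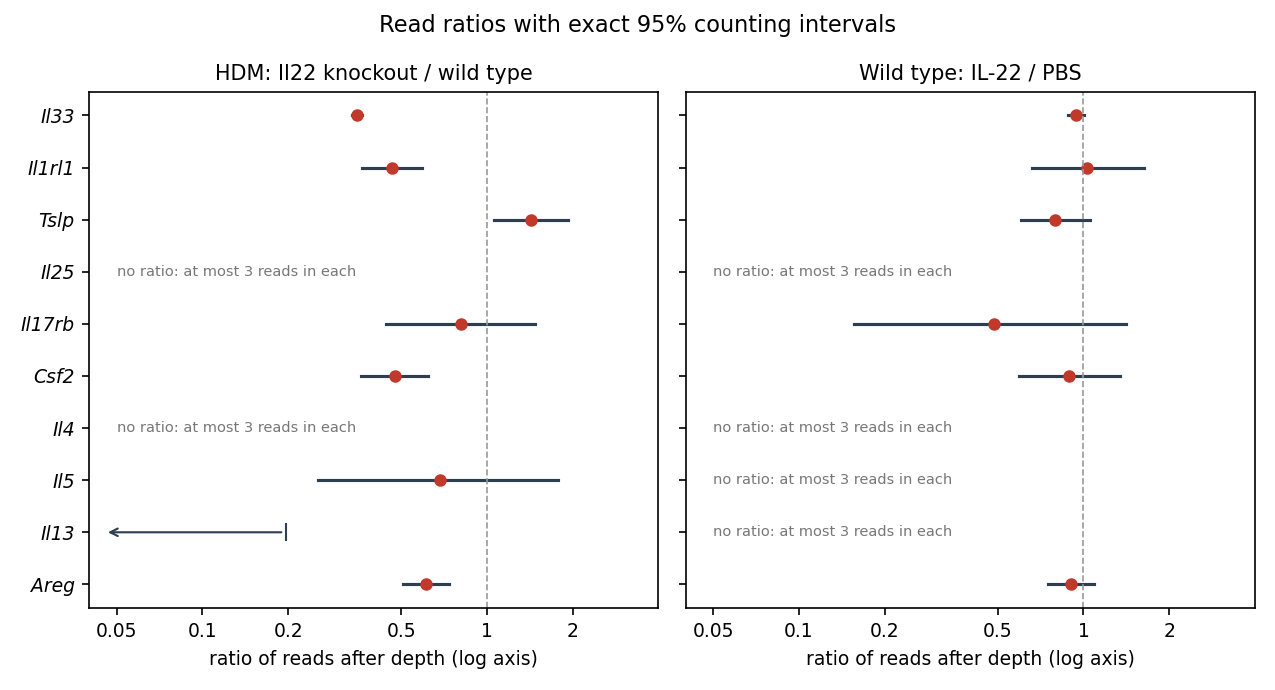
Ratio of reads after depth for each gene (rows), as knockout over wild type after HDM (left) and IL-22 over PBS (right), on a log axis with exact 95% counting intervals as bars; the arrow for Il13 starts at its upper limit of 0.196. On the left 5 intervals lie below 1 and that of Tslp above it, and on the right all 6 hold 1.

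Among the alarmins, Il33 (chromosome 19, 29925114 to 29960718) was at 58.2 FPKM in the knockout HDM library, 167 in wild-type HDM lung, 34.4 after IL-22 and 36.5 after PBS. Whether the 2 tables share a normalization is not stated, so values from different tables are only set side by side here. The wild-type HDM library was the high one, and the knockout HDM library lay nearer to the lungs without allergen. The difference between the HDM libraries was -1.50, a read ratio of 0.349 (0.336 to 0.363), and 125 of the 13285 measured genes had a lower difference. The value lies almost at the stricter size rule of 1.5.

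Several cell type marker lists moved with Il33 between the HDM libraries and others did not. All 9 monocyte and interstitial macrophage markers lay below 0 and 4 were lower (median -0.77; sums 254 FPKM in the knockout and 554 in the wild-type HDM library), with the complement genes C1qa at -1.62 and C1qb at -1.80. All 5 ciliated cell markers lay below 0 with none called (median -0.20; sums 327 and 396), while all 5 club cell markers lay above 0 with none called (median 0.48). The 5 measured neutrophil markers went both ways, with 2 higher and 1 lower. The part of these cells in the Il33 difference was not tested. Of the 4 lists of alveolar and stromal cells, among which are known sources of IL-33, no marker was called lower. The 9 alveolar type II markers had a median difference of -0.0048 with none called, and summed to 43236 FPKM in the knockout and 36823 in the wild-type HDM library. Most of both sums was Sftpc, at 37820 and 30749 FPKM. Of the 9 markers 5 lay below 0, Sftpa1 and Sftpd among them, and 4 above it. Of 8 alveolar type I markers 7 lay above 0 (median 0.31; sums 4142 and 3268 FPKM). Of 8 endothelial markers 1 was higher (median 0.34; sums 885 and 699), and of 8 fibroblast markers 2 were higher (median -0.04; sums 3314 and 1860). Inmt alone made the gap between the fibroblast sums: without it, chosen after its values were seen, they were 803 and 829 FPKM, and 4 of the 8 markers, Col1a1, Col1a2, Col3a1 and Mfap4, lay below 0. No marker of these 4 lists was at 0 in either library. In whole lung, fewer cells of a type and less RNA per cell cannot be told apart. The 5 genes nearest to Il33 in the differences of both tables, among 5822 genes averaging 10 FPKM or more in each, were Usp18, Lilrb4, Ccl6, Chi3l1 and Mgl2. Chi3l1, a chitinase-like protein, had differences of -1.59 in the HDM pair and 0.0066 in the IL-22 pair, and Usp18, an interferon-induced protease, -1.47 and -0.10. The distances rested on 2 differences and ran up to 0.188 for Mgl2, a lectin of dendritic cells and macrophages.

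Tslp (chromosome 18, 32815383 to 32819797) was at 4.63 FPKM in the knockout HDM library and 3.26 in the wild-type HDM library, and at 4.26 in the IL-22 library and 5.35 in the PBS library. The wild-type HDM library thus had the lowest listed level of Tslp. Its counting interval (2.55 to 4.07) overlapped with that of the IL-22 library (3.52 to 5.12) and not with that of the PBS library (4.35 to 6.51). The HDM difference of 0.40 did not meet the size rule. Its read ratio was 1.43 (1.06 to 1.93), from 117 reads against 75, and 1159 measured genes (8.72%) had a higher difference. Basal airway cell markers, of a cell that can make TSLP, all missed the filter, at a sum of 0.860 FPKM in the knockout and 1.71 in the wild-type HDM library, with Dlk2 at 0 in the wild-type library.

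Il25 (chromosome 14, 54932695 to 54935837) was listed at 0 in all 4 libraries. A count of 0 allows up to 3 reads, which is 0.127 FPKM in the knockout HDM library, 0.139 in wild-type HDM lung, 0.120 after IL-22 and 0.174 after PBS. IL-25 in the airway comes mainly from tuft cells. Of their 7 listed markers only Dclk1 and Ltc4s, which other cells also express, were measured in the HDM pair, and the list summed to 21.0 FPKM in the knockout and 22.3 in the wild-type HDM library. The channel gene Trpm5, a defining tuft cell marker, was at 0.0175 and 0.0382 FPKM. Gfi1b and Chat, also under the filter, likewise had lower listed values in the knockout. Pou2f3, at 0.252 and 0.0344 FPKM, and Avil, at 0.297 and 0.282, went the other way. No counting intervals are given for these low markers, so no direction is read from them.

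Of the receptor chains, Il1rl1 (chromosome 1, 40429570 to 40465415) was at 1.54 FPKM in the knockout HDM library, 3.30 in wild-type HDM lung, 0.727 after IL-22 and 0.704 after PBS. As for its ligand gene Il33, the wild-type HDM library was the high one, the knockout HDM library came next, and the IL-22 and PBS libraries were low. The HDM difference was -0.76, short of the size rule, and the read ratio was 0.464 (0.362 to 0.591). It was computed from 103 and 203 reads by the shorter of its transcripts, which run from 2661 to 5302 bases. With a pseudocount of 0.1 in place of 1 the difference was -1.05 and met the rule. Mast cells and basophils carry much ST2. Of their 11 listed markers 3 were measured and none called, with sums of 87.1 FPKM in the knockout and 85.2 in the wild-type HDM library, and Tpsab1 and Ms4a2 were at 0 in both. Nearly all of these sums, 84.6 and 82.1 FPKM, came from the 3 measured genes Kit, Hdc and Gata2, which other cells also express. The other 8 summed to 2.41 FPKM in the knockout and 3.17 in the wild-type HDM library, where 5 had a lower level in the knockout and 1 a higher one. The granule protease gene Tpsb2 was at 0.207 and 0.677 FPKM, and Cpa3 at 0.672 and 0.863, all under the filter. The part of mast cells and basophils in the Il1rl1 difference was not tested.

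Il17rb (chromosome 14, 29996135 to 30008896) had 23 reads in the knockout HDM library and 26 in the wild-type HDM library, at 0.452 and 0.559 FPKM, a ratio of 0.809 (0.441 to 1.47). It had 7 reads in the IL-22 library and 10 in the PBS library, at 0.130 and 0.269 FPKM, a ratio of 0.485 (0.157 to 1.41). No difference was detectable in either pair at this depth.

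Csf2 (chromosome 11, 54247271 to 54249667) was at 5.20 FPKM in the knockout HDM library, 11.0 in wild-type HDM lung, 3.33 after IL-22 and 3.79 after PBS. Again the wild-type HDM library stood above the other libraries. The HDM difference of -0.95 fell just short of the size rule and was -1.06 with the smaller pseudocount, and the read ratio was 0.474 (0.360 to 0.620), from 85 against 164 reads. A lower difference was found in 347 of the measured genes, or 2.61%. Of 8 markers of alveolar macrophages, the cells that depend on GM-CSF, 4 were lower and none was at 0 (median -0.55). They summed to 555 FPKM in the knockout and 2700 in the wild-type HDM library, most of it Chi3l3. Without Chi3l3, set aside after its values were seen, the sums were 187 and 263 FPKM and the median was -0.08. Car4, which was not called, made up 132 and 137 FPKM of these sums. Of the remaining 7 markers 3 were lower, and 2, Marco and Siglec5, lay above 0. The lower ones were Fabp4 at 23.8 and 68.1 FPKM, Itgax at 7.42 and 24.7 and Mrc1 at 8.91 and 19.1. The part of such cells in the Csf2 difference was not tested.

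The type 2 cytokines were at a few reads each. Il13 (chromosome 11, 53631324 to 53634702), the main inducer of goblet cells, was listed at 0 in the knockout HDM library and had 19 reads in wild-type HDM lung, with 3 reads each in the IL-22 and PBS libraries. As FPKM these were 0.757 in wild-type HDM lung, 0.103 after IL-22 and 0.149 after PBS. The exact interval of the HDM ratio had an upper limit of 0.196. With the knockout set at the floor of 3 counts Il13 was at least 6.93-fold lower, taking the 19 reads as exact. Il5 (chromosome 11, 53720794 to 53725106), which drives eosinophil output, had 9 reads in the knockout HDM library and 12 in the wild-type HDM library, against 1 in the IL-22 library and 0 in the PBS library. Its HDM ratio of 0.686 (0.255 to 1.77) showed no difference detectable at this depth. Il5 was thus detected in the knockout HDM library, where Il13 was not, at 0.247 FPKM against 0.360 in wild-type HDM lung. Both had more reads in wild-type HDM lung than in either lung without allergen. Il4 (chromosome 11, 53602982 to 53618669) had 1 read in the knockout HDM and 2 in the wild-type HDM library, and 1 in the IL-22 and 2 in the PBS library, too few for a ratio, and its level was at most 0.249 FPKM, in the PBS library.

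T cells and ILC2 are the main makers of these cytokines. Of 8 listed T cell markers 7 were measured in the HDM pair, and all lay below 0, with none called (median -0.68; sums 47.8 FPKM in the knockout and 76.8 in the wild-type HDM library, none at 0). Their part in the Il13 difference was not tested. Of 8 eosinophil markers 3 were measured and 1, the granule protein gene Prg2, was lower, at 0.173 FPKM in the knockout and 2.83 in the wild-type HDM library. The other measured markers were Ear6 at 1.46 and 2.10 FPKM and Siglec5, on the other side, at 4.35 and 4.06. Epx and Prg3 were at 0 in the knockout library and only at 0.0161 and 0.0536 FPKM in the wild-type HDM library. The list summed to 6.45 FPKM in the knockout and 10.9 in the wild-type HDM library. All 8 measured genes of the ILC2 and T helper 2 surface list lay below 0, again with none called (median -0.57). Of these, Icos and Ccr4 passed the filter only through their wild-type level, with Ccr4 at 0.839 FPKM in the knockout and 1.54 in the wild-type HDM library. Nmur1, under the filter, went the other way, at 0.360 FPKM in the knockout and 0.236 in the wild-type HDM library. The list shares Cd4 and Cd3e with the T cell list, and its other 6 measured genes had a median of -0.42. Klrg1, a receptor found on activated ILC2, had 1.76 FPKM in knockout and 3.99 in wild-type HDM lung, and the costimulator Icos at 0.802 and 1.87. Among all measured genes 46.1% lay below 0. Of 8 measured type 2 transcription factors none was called and the median was 0.08, with the lineage factor Gata3 at 4.46 and 3.78 FPKM and Irf4, a factor of activated lymphocytes and macrophages, at 0.897 and 1.97.

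Il4, Il13, Il5 and Csf2 lie within 647 kb of chromosome 11, from 53602982 to 54249667, together with 9 other genes of the tables. Of these 6 were measured in the HDM pair and none was called, with a median of 0.06. Rad50, the repair gene between Il13 and Il5, had 8.03 FPKM in knockout and 6.99 in wild-type HDM lung, and Irf1, an interferon-induced factor, at 40.1 and 46.7. Pdlim4, which encodes a cytoskeletal adaptor, had the lowest difference of the 6, at -0.83.

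Areg (chromosome 5, 91139599 to 91148432) was at 7.08 FPKM in the knockout HDM library, 11.6 in wild-type HDM lung, 9.12 after IL-22 and 10.1 after PBS. Here the wild-type HDM library stood close to the lungs without allergen, and the knockout HDM library had the lowest level. The counting intervals of the knockout HDM library (6.12 to 8.14) and the IL-22 library (8.05 to 10.3) overlapped. The HDM difference was -0.64 and the read ratio 0.610 (0.506 to 0.733). Of the other EGF family genes and their receptors 6 were measured and none was called, with a median of 0.06. Hbegf, a ligand of the same receptor, had 24.7 FPKM in knockout and 24.9 in wild-type HDM lung, and Egfr itself at 4.18 and 4.55.

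**Figure D3:**
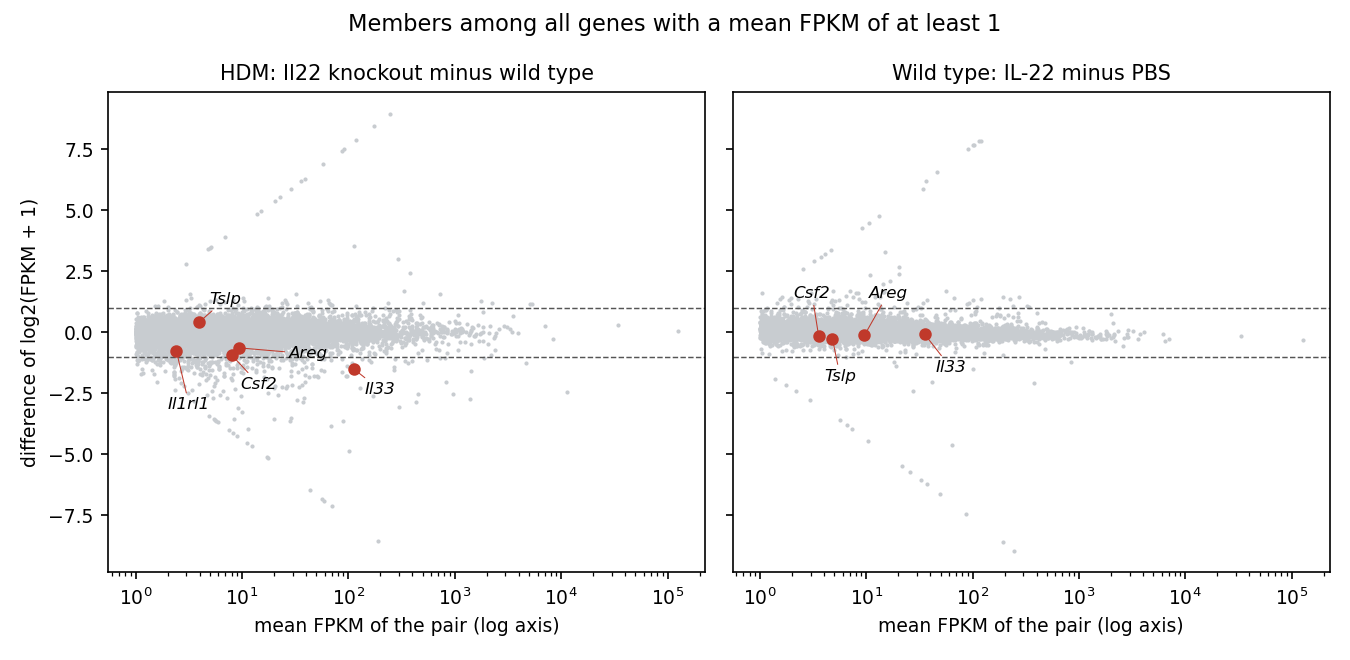
Difference of log2(FPKM + 1) against mean FPKM (log axis) for every measured gene (grey) with the measured members in red, as knockout minus wild type after HDM (left) and IL-22 minus PBS (right); dashed lines mark the size rule of 1. On the left Il33 lies at -1.50 beyond the rule and Csf2 at -0.95 just inside it, and on the right the 4 members lie between -0.27 and -0.08.

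The other genes of these pathways were mostly not called between the HDM libraries, though several differed by as much as Il1rl1 or Areg. Of the 10 measured alarmin receptor and signalling genes, Il1rl1 among them, none was called and 8 lay below 0 (median -0.19). Myd88, the adaptor of IL-33 signalling, had 16.8 FPKM in knockout and 24.6 in wild-type HDM lung, Il17ra at 4.64 and 6.37, and Crlf2 at 13.4 and 16.3. The accessory chain Il1rap was at 6.99 and 6.28. All 6 measured genes listed under receptors of IL-4, IL-13, IL-5 and GM-CSF, Csf2rb2 among them, lay below 0 with none called (median -0.56). The lowest were Csf2rb at 3.22 and 6.77 FPKM, Csf2ra at 10.3 and 18.2 and Csf2rb2 at 1.48 and 3.15. Csf2rb and Csf2rb2 are close paralogs that can share reads. Il4ra was at 18.3 and 20.9 FPKM and Il13ra1 at 21.8 and 26.1. Other genes of the IL-1 family had 1 lower of 10 measured (median -0.43). That was Il18bp, the soluble inhibitor of IL-18, at 4.11 FPKM in the knockout and 9.96 in the wild-type HDM library. Il1a, itself an alarmin, was at 2.06 and 4.47 FPKM, Il1b at 5.43 and 8.43, and Il18 on the other side at 14.5 and 10.3.

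**Figure D4:**
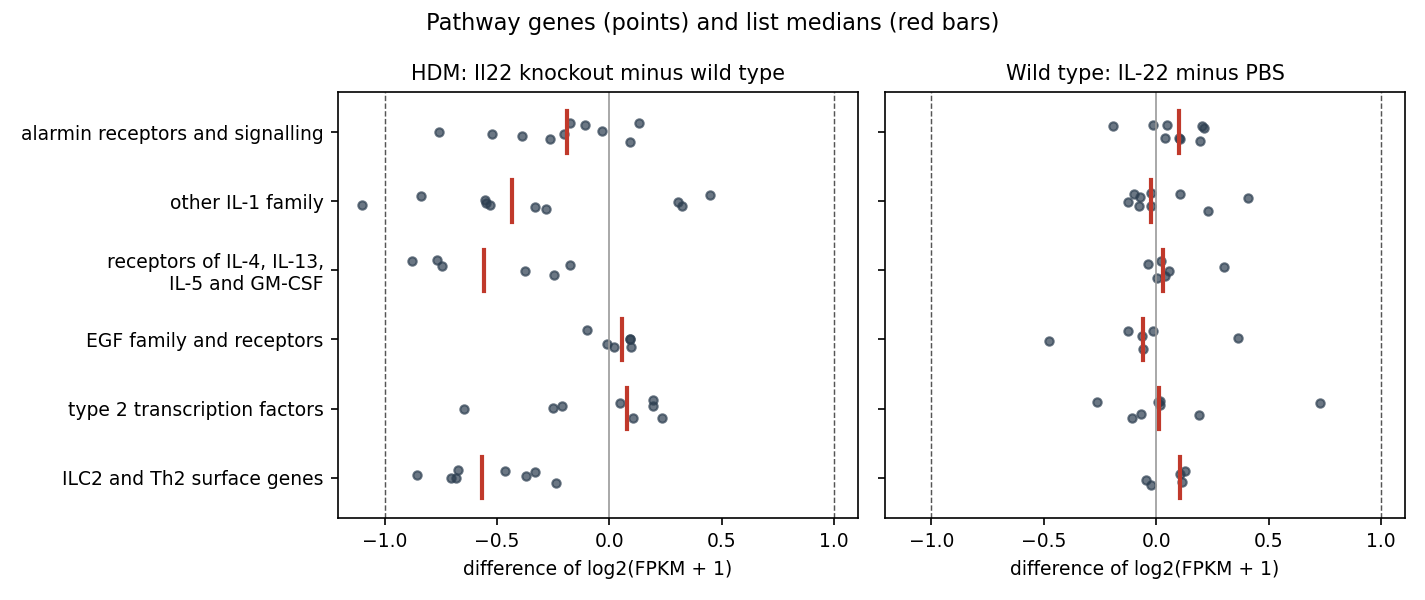
Difference of log2(FPKM + 1) of each measured gene (points) in 6 pathway lists, with the list median as a red bar, for knockout minus wild type after HDM (left) and IL-22 minus PBS (right); dashed lines mark the size rule of 1. On the left the medians run from -0.57 for the ILC2 and T helper 2 surface genes to 0.08 for the transcription factors, and on the right from -0.06 to 0.10.

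The IL-22 and PBS libraries were compared to ask what the cytokine does to a lung without allergen. None of the 4 measured genes (Il33, Tslp, Csf2 and Areg) was called, where 0.597% of 13233 measured genes were higher and 0.189% lower. Their median difference was -0.14, against 0.04 over all genes. The read intervals of all 6 genes with a ratio held 1, where 23.0% of 16049 genes had intervals above 1 and 12.3% below. For Il33 the ratio was 0.941 (0.884 to 1.002). For Tslp it was 0.797 (0.604 to 1.05), for Csf2 0.892 (0.594 to 1.35), for Areg 0.906 (0.752 to 1.09) and for Il1rl1 1.03 (0.657 to 1.63). The order of Il33 between the libraries depended on scaling: its difference was -0.08 as deposited and 0.02 with the libraries set to the same total FPKM.

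No pathway gene named above met the size rule with IL-22. The 9 measured alarmin receptor and signalling genes had a median of 0.10, the 6 cytokine receptor genes 0.03, and the 9 other IL-1 family genes -0.02. The largest difference among the 8 transcription factors was that of Rora, a factor needed for ILC2 development, which had 4.79 FPKM after IL-22 and 2.49 after PBS and differed by 0.73. Hbegf had 22.8 FPKM after IL-22 and 32.2 after PBS. The T cell markers summed to 59.4 FPKM with IL-22 and 58.6 with PBS. Of the 9 monocyte and interstitial macrophage markers 8 lay above 0 and 1 was higher (median 0.36; sums 492 FPKM after IL-22 and 309 after PBS).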

How the data were processed

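The authors deposited FPKM per gene in 2 tables, 1 for the HDM pair and 1 for the IL-22 and PBS pair. CASAVA 1.8.2, TopHat2, Cufflinks 2.2.1 and mm10 are named in the submitters' processing notes; settings and any scaling across libraries were not among what was given here. RNA came from frozen lung, per the labels' protocols.

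The tables were joined on symbol and accession (23746 rows), 25 symbols turned into dates were restored from accessions, and rows of a symbol were summed. Differences are of log2(FPKM + 1) within a table, the group named first minus the other. Reads were recovered as FPKM times depth times the GENCODE M21 transcript length less 200 bases (the shortest listed transcript); of 8664 low values of single-accession genes 60.8% were whole reads to within 0.1 (20% by chance). Reads are exact only as far as that length holds. Intervals and floors (3 counts) cover counting error only. Depth recovery and calls were tested on simulated data. Coordinates are GENCODE M21, on the same assembly as mm10.

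The members and lists were chosen with earlier results of these data known, so their counts are descriptions. Named were all 10 members, of each pathway list mainly the 4 genes with the largest differences, and the genes nearest to Il33; other list genes were added after their values were seen. Alternatives were a pseudocount of 0.1, 2 scalings, other filters, a size rule of 1.5, full transcript length and another relative depth. The work was done in Python 3.11.15 (scipy 1.17.1, pandas 2.3.3, numpy 2.4.6), with figures by matplotlib 3.10.9.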

Additional observations from a re-analysis of the deposited data

How the results depend on the processing

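With a pseudocount of 0.1 the genes past the size rule numbered 619 in the HDM pair (395 with a pseudocount of 1) and 166 in the IL-22 pair (104 with a pseudocount of 1), and the members past it in the HDM pair numbered 3 in place of 1, with Il1rl1 at -1.05 and Csf2 at -1.06 joining Il33. A mean FPKM of at least 5 left 251 genes in the HDM pair, since fewer genes were tested, and a size rule of 1.5 left 151 and 52 in the HDM and IL-22 pairs. Il33 kept its call in the HDM pair under every alternative, at -1.49 to -1.53 where the difference was recomputed, and no member was past the rule in the IL-22 pair under any. Of 28 recomputed read ratios none left its interval or changed sides of 1. Setting the IL-22 and PBS libraries to the same total moved the median of all genes to 0.13, against 0.04 as deposited, and turned the sign of Il33, from -0.08 to 0.02. No paired analysis was possible because each group has 1 library and the labels carry no replicate numbers. Depth limits Il4, Il5, Il13, Il25 and Il17rb, which had at most 26 reads in any library, and spread between animals was not measured.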

Other observations

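Other helper and inflammatory cytokines lay mostly under the filter. Il6, an inflammatory cytokine, was at 0.165 FPKM in the knockout HDM library and 1.76 in the wild-type HDM library, with 0.195 in the IL-22 library and 0.169 in the PBS library. The wild-type HDM library was thus the high one, as for Il33, Il1rl1 and Csf2, but at a mean of under 1 FPKM the gene was not measured. Tnf had 0.258 FPKM in knockout and 0.791 in wild-type HDM lung, and at 1.61 after IL-22 and 0.599 after PBS. Il10, an anti-inflammatory cytokine, had 1.85 FPKM after IL-22 and 0.0452 after PBS, likewise under the filter. Il3, Il31, Il17a and Il17f were listed at 0 in all 4 libraries. Il13ra2, the decoy receptor of IL-13, was at 0.0822 FPKM in the knockout HDM library, 0.599 in the wild-type HDM library and 0.0259 in the IL-22 library, and was listed at 0 in the PBS library. These genes were picked out of the lists after their values were seen.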
